A study of Rattus norvegicus with 2 samples.

Results

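Extracellular ATP and adenosine act on sympathetic neurons through 3 families of receptor, and 10 genes of these families were examined in stellate ganglion neurons. The genes were taken by symbol and are the P2X genes P2rx2, P2rx3, P2rx4, P2rx5 and P2rx7, the P2Y genes P2ry1, P2ry2 and P2ry12, and the adenosine receptor genes Adora1 and Adora2a. All 10 were listed among the 25395 genes used. Stellate ganglia were dissociated with collagenase and trypsin and single cells were captured in droplets with 10x Genomics 3' v3 chemistry. One strain was the normotensive Wistar and the other the spontaneously hypertensive rat (SHR) at a prehypertensive stage, with 1 library each. Animals of both strains were 5 to 6 weeks old, and the study's methods describe them as male. How many animals gave each library is not given in the sources used here. The SHR is an inbred genetic model of hypertension and the Wistar an outbred strain, so a difference between the libraries cannot be told apart from a difference of genetic background. With 1 library per strain there was no spread between replicates, no test between the strains was possible, and every difference below describes these 2 libraries.

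Sympathetic nerves release ATP together with noradrenaline. P2X receptors are cation channels that ATP opens, and they give fast excitation. P2Y receptors and adenosine receptors are coupled to G proteins: some P2Y receptors act through Gq, which in sympathetic neurons can close M current channels, whereas the P2Y12 and A1 receptors act through Gi and restrain transmitter release from sympathetic terminals. ATP is broken down outside the cell to ADP, AMP and adenosine, so the same release can reach all 3 families in turn.

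For each library the deposited value of a gene is the natural log of 1 plus its mean count per 10000 counts of a neuron, and levels are given here as that mean per 10000. The 3' chemistry tags each transcript at its end, so the means were not divided by gene length. The number of neurons and their depth are unknown. What a single count is worth can be seen from values that 3 or more genes share exactly, as genes counted once in the same cell do. The median of these shared values was 0.000327 in Wistar against 0.000906 in SHR, and the highest was 0.00776 in Wistar and 0.0186 in SHR. A single count therefore weighed more in the SHR library, and means of about 0.01 per 10000 in SHR lie within the range of such shared values.

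The neuron cluster carried its defining markers in both libraries. All 10 sympathetic neuron markers listed, which include Th, Dbh, Slc6a2 and Prph, averaged at least 0.1 per 10000, and their summed mean was 125.4 in Wistar against 131.5 in SHR. Without Prph, the highest of them, the sums were 67.5 and 63.9. Of the 10 markers, 7 were lower in SHR, and Hand2, Prph and Snap25 were higher. Ddc, at 7.05 in Wistar against 3.44 in SHR, and Dbh, at 10.2 against 6.36, were lower by 1.5-fold or more. Hand2, at 0.250 against 0.452, was higher by 1.5-fold or more. Of all genes averaging at least 0.1 per 10000, 65.6% were lower in SHR, 26.5% by 1.5-fold or more. The marker lists of other cells had lower sums, and each of these 8 sums was lower in SHR. The summed mean of the satellite glia and Schwann cell list was 9.43 in Wistar against 3.47 in SHR, and that of the macrophage and microglia list was 0.483 and 0.0919.

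Promoter sequence is shown for P2rx3 and P2ry1, the 2 members with a listed stretch wholly outside the annotated span of the gene. The RefSeq promoter table of the GRCr8 rat assembly held 6 of the 10 genes. P2rx2, P2rx5, P2ry12 and Adora2a are not in it. For P2rx3, where 2 starts are listed, and P2ry1, 1 stretch each lay wholly outside the annotated span of its gene, and only these 2 are printed, as the 250 bases before the start, 5′ to 3′ on the gene's strand, with CG pairs, which read the same on both strands, in capitals. The P2rx3 stretch is at chr3:90531316-90531565 on the minus strand and the P2ry1 stretch at chr2:147391411-147391660 on the plus strand.
P2rx3: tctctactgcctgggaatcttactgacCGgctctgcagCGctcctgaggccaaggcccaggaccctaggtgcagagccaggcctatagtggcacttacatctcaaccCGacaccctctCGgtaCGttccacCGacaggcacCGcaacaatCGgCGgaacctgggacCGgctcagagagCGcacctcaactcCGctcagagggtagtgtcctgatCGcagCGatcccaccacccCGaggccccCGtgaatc
P2ry1: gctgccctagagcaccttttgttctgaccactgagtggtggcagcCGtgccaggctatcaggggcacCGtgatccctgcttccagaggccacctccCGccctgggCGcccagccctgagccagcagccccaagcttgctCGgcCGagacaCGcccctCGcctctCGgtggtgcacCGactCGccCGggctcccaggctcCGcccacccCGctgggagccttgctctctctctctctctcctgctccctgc
The P2rx3 stretch held 16 CG pairs and the P2ry1 stretch 14, against a median of 5 over the 33469 stretches of this length in the table, of which 92.2% held at least 1. As few CG pairs or fewer were held by 78.1% of all stretches for P2rx3 and by 74.2% for P2ry1. The stretches not printed held 7 CG pairs at the other P2rx3 start, 15 for P2rx4, 9 for P2rx7, 25 for P2ry2 and 3 for Adora1. These counts describe the sequence, and no value here measures the promoters.

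Among the 10 genes, P2rx2 had the highest mean in both strains. P2rx2 encodes the P2X2 subunit, which forms slowly desensitising ATP-gated channels alone or together with P2X3. Neurons averaged 0.490 P2rx2 counts per 10000 in Wistar, where the gene ranked 3482 by its mean, against 0.562 in SHR, where it ranked 2669. The SHR mean was 1.15 times the Wistar mean, and the log2 of 1 plus the mean was higher by 0.07. Among all genes, the 3 whose deposited values lay nearest to those of P2rx2 over the 2 libraries were Dhps, Csnk2a1 and Rbm42. Dhps, the closest, averaged 0.495 against 0.568 per 10000. With 2 values per gene this is a likeness of level and not of pattern.

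P2rx4 encodes the P2X4 subunit, which is found in neurons and also in macrophages and microglia, where much of it resides in lysosomes. It was second in both libraries, with 0.183 per 10000 in Wistar against 0.235 in SHR, so that the SHR mean was 1.28 times the Wistar mean. The summed macrophage and microglia markers were lower in SHR, and the part of these cells in the P2rx4 values was not tested. Of the 10 markers in that list, 8 were lower in SHR, among them C1qa, at 0.138 in Wistar against 0.00727 in SHR, and Cx3cr1, listed at 0 in SHR. The other 2 were higher in SHR, Trem2 at 0.000568 against 0.00286 and Ptprc at 0.00388 against 0.00473. Trem2, Ptprc and Cx3cr1 averaged under 0.01 per 10000, and the rest of the list averaged 0.01 to under 0.1. All markers in that band were lower in SHR by 1.5-fold or more. Of all genes averaging 0.01 to under 0.1 per 10000, 73.7% were lower in SHR, 49.3% by 1.5-fold or more. P2rx2 and P2rx4 were the only members that averaged at least 0.1 per 10000 over both libraries, the minimum used for a gene to be counted.

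P2rx3 encodes the P2X3 subunit of fast desensitising channels, best known from sensory neurons. P2rx3 averaged 0.0224 per 10000 in Wistar against 0.0422 in SHR, and the SHR mean was 1.88 times the Wistar mean, the largest ratio towards SHR among the members above 0 in both libraries. The Wistar mean was 68.7 times the median shared value of its library and the SHR mean 46.5 times that of its own. Sensory neuron markers did not go one way. Trpv1 averaged 0.0245 in Wistar against 0.0354 in SHR, whereas Calca averaged 0.0418 against 0.0131. Mrgprd and Piezo2 were listed at 0 in both libraries, and Scn10a was listed at 0 in SHR and at 0.00123 in Wistar. The summed mean of this list was 5.21 in Wistar against 1.77 in SHR, of which 5.15 and 1.72 came from Avil. The part of sensory neurons in the P2rx3 values was not tested.

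The other P2X members were at the edge of detection. P2rx7, whose channel is best known from macrophages and other immune cells, was listed at 0 in Wistar and stood at 0.000970 per 10000 in SHR. Its SHR value was identical, to the 9 decimals deposited, to that of 14 other genes, as for genes counted once in the same cell. P2rx5 was listed at 0 in both libraries. For neither gene can a difference between the strains be read from these values.

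**Figure D1:**
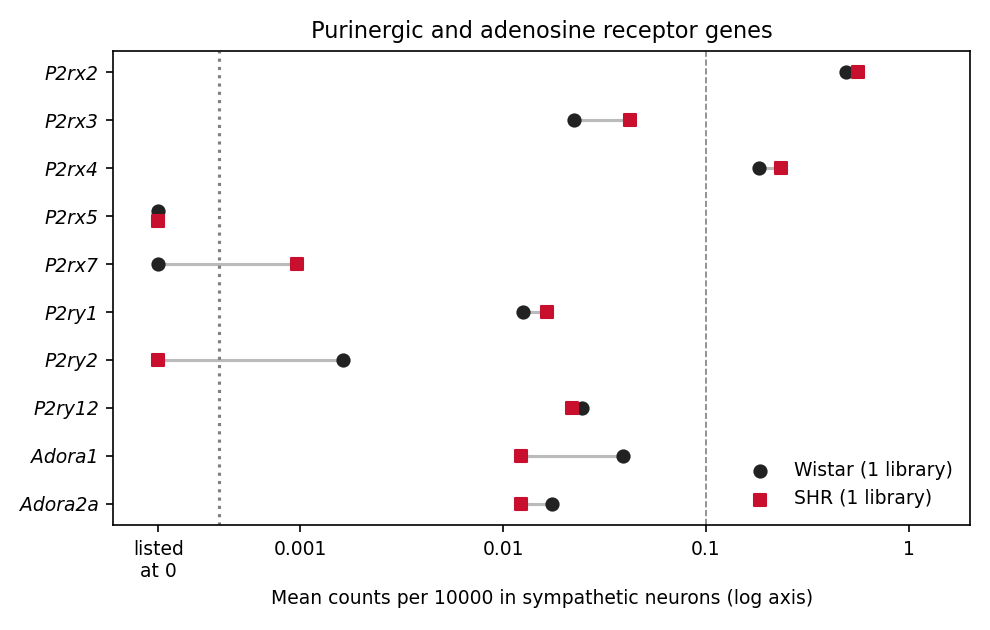
Mean counts per 10000 (log axis) of the 10 receptor genes in the sympathetic neurons of the Wistar library (circles) and the SHR library (squares), with values listed at 0 left of the dotted line and the minimum of 0.1 per 10000 as a dashed line. P2rx2 and P2rx4 lie right of the dashed line in both libraries, P2rx3 lies further right in SHR, and Adora1 lies further left in SHR.

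The P2Y members had low means in both libraries. P2ry12 encodes the Gi-coupled ADP receptor P2Y12, which restrains transmitter release from sympathetic terminals and is also a known marker of microglia and platelets. P2ry12 averaged 0.0244 per 10000 in Wistar against 0.0218 in SHR. The Wistar mean was 1.12 times the SHR mean, but the direction rests on the scaling, since the log2 ratio of -0.16 as deposited became 0.05 relative to the median gene. Over the same libraries the summed macrophage and microglia markers went from 0.483 to 0.0919 per 10000, and the summed erythrocyte and platelet markers from 0.0770 to 0.0522. Most of the latter sum came from Hbb, at 0.0474 in Wistar against 0.0237 in SHR, and Hba-a2, at 0.0195 against 0.0262. The platelet marker Pf4 went from 0.0101 to 0.00226, and Ppbp was listed at 0 in both libraries. The part of microglia and platelets in the P2ry12 values was not tested.

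P2ry1 encodes the Gq-coupled ADP receptor P2Y1. P2ry1 averaged 0.0126 per 10000 in Wistar against 0.0165 in SHR, so that the SHR mean was 1.31 times the Wistar mean. The SHR mean of P2ry1 lies under the highest shared value of that library, 0.0186. P2ry2, the gene of the Gq-coupled receptor for ATP and UTP, stood at 0.00162 per 10000 in Wistar, 4.95 times the median shared value there, and was listed at 0 in SHR.

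The adenosine receptor members were both lower in SHR. Adora1 encodes the Gi-coupled A1 receptor, through which adenosine restrains calcium channels and transmitter release in sympathetic neurons. Adora1 averaged 0.0391 per 10000 in Wistar against 0.0123 in SHR, and the Wistar mean was 3.18 times the SHR mean, the largest ratio in either direction among the members above 0 in both libraries. Adora2a encodes the Gs-coupled adenosine receptor that raises cyclic AMP, and it averaged 0.0174 per 10000 in Wistar against 0.0123 in SHR, a Wistar mean 1.42 times the SHR mean. In Wistar the Adora1 mean was 2.25 times that of Adora2a, and in SHR the means were nearly equal, at 1.00 times. This ratio is taken within a library and does not depend on its scaling. The SHR means of both genes were 13.6 and 13.5 times the median shared value of that library, so few counts stood behind each. The Wistar means were 120 times the median shared value of their library for Adora1 and 53.2 times for Adora2a. Setting the median log2 difference to 0, a shift larger than these small differences, turned the sign of Adora1 and Adora2a on the log2 of 1 plus the mean. The ratios of the means themselves were still lower in SHR relative to the median gene, with log2 ratios of -1.46 and -0.29.

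By order of their means, P2rx2 and P2rx4 came first and second in both libraries. Adora1 was number 3 in Wistar and number 6 in SHR, and P2rx3 was number 5 and number 3. With no replicates it cannot be said which neighbours in this order differ beyond their spread.

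Across the transcriptome most genes were lower in SHR, which sets the scale for these differences. Of 7621 genes that averaged at least 0.1 per 10000, 65.6% were lower in SHR and 34.4% higher, 26.5% were lower by 1.5-fold or more and 5.22% higher by 1.5-fold or more. The median gene among them had a log2 ratio of -0.21, SHR to Wistar. Both members past that minimum, P2rx2 and P2rx4, were higher in SHR, and neither reached 1.5-fold. Relative to the median gene their log2 ratios were 0.41 and 0.57, and P2rx2, P2rx3, P2rx4 and P2ry1 were higher in SHR under each of the 3 other scalings tried. The median of the 2 in the log2 of 1 plus the mean was 0.07, beside -0.05 over all 7621 genes. With 2 genes this count says little about the families.

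Of 4011 genes averaging 0.01 to under 0.1 per 10000, a band chosen after the values were seen, 73.7% were lower in SHR and 26.3% higher, 49.3% were lower by 1.5-fold or more and 10.3% higher by 1.5-fold or more. The 5 members in this band were P2rx3, P2ry1, P2ry12, Adora1 and Adora2a, of which 3 were lower and 2 higher. Adora1 was the 1 member lower by 1.5-fold or more, as 49.3% of the genes in the band were, and P2rx3 was the 1 member higher by 1.5-fold or more. The other 3 members, P2rx7, P2ry2 and P2rx5, averaged under 0.01 per 10000.

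**Figure D2:**
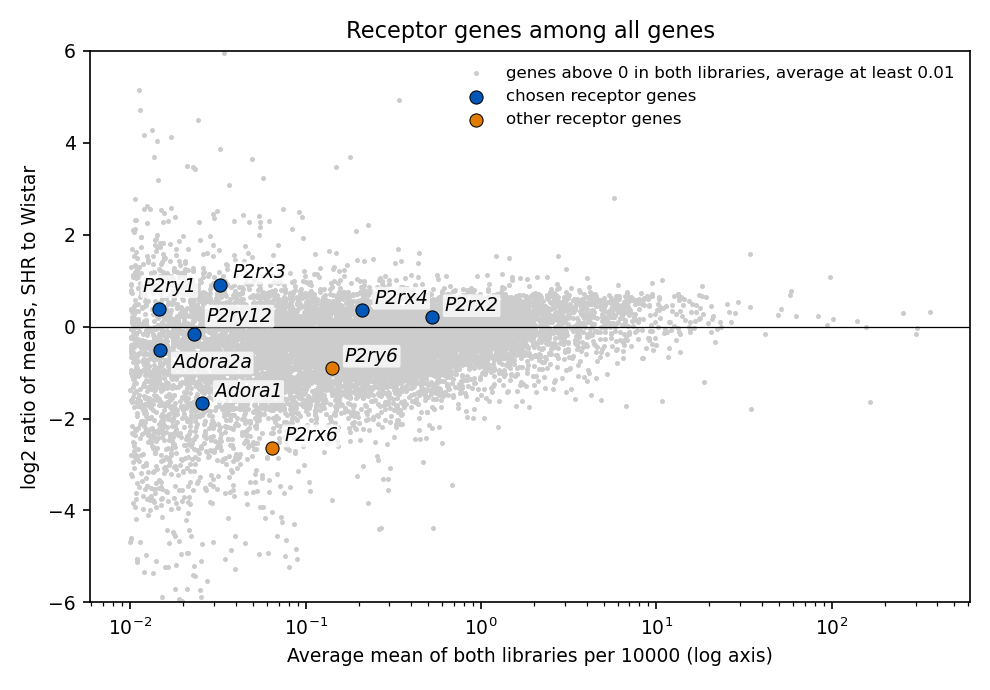
Log2 ratio of the means, SHR to Wistar, against the average mean of both libraries per 10000 (log axis) for 11604 genes above 0 in both libraries and averaging at least 0.01 per 10000 (grey), with 7 genes beyond the vertical axis, 7 chosen receptor genes (blue) and the further receptor genes P2rx6 and P2ry6 (orange). P2rx2, P2rx3, P2rx4 and P2ry1 lie above 0 and Adora1, Adora2a, P2rx6 and P2ry6 below it, in a cloud that lies mostly below 0.

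The 10 further genes of these families add a pair of receptors with means like those of the members. P2rx6 encodes the P2X6 subunit, which forms channels poorly alone and combines with P2X2 or P2X4. P2rx6 averaged 0.110 per 10000 in Wistar against 0.0177 in SHR, and the Wistar mean was 6.20 times the SHR mean. P2rx2 was therefore 4.46 times as abundant as P2rx6 within the Wistar library and 31.8 times within the SHR library. The SHR mean of P2rx6 lies under the highest shared value of that library, 0.0186. It was 19.5 times the median shared value there, beside 336 times for P2rx6 in Wistar. Few counts therefore stood behind the SHR mean and the ratios that use it. P2ry6 encodes the Gq-coupled UDP receptor P2Y6 and is also known from macrophages and microglia. It was the most abundant P2Y gene in both libraries, at 0.184 per 10000 in Wistar against 0.0989 in SHR, and the Wistar mean was 1.87 times the SHR mean. P2ry6 averaged 0.142 over both libraries. Of all genes averaging at least 0.1 per 10000, 65.6% were lower in SHR, 26.5% by 1.5-fold or more. The summed macrophage and microglia markers were also lower in SHR, and so were 8 of the 10 single ones. Apart from Cx3cr1, Ptprc and Trem2, which averaged under 0.01 per 10000, these markers averaged 0.01 to under 0.1. All markers in that band were lower by 1.5-fold or more. Of all genes in the band, 73.7% were lower in SHR, 49.3% by 1.5-fold or more. The part of macrophages and microglia in the P2ry6 values was not tested. Adora2b was listed at 0.00558 and 0.00366 per 10000, P2ry13 at 0.000378 in Wistar alone, and P2ry10 and P2ry14 at 0.000844 and 0.000920 in SHR alone. P2rx1, P2ry4, Gpr17 and Adora3 were listed at 0 in both libraries. Of the 20 receptor genes, 5 were listed at 0 in both.

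Summed by family, the 5 P2X members summed to 0.695 in Wistar against 0.840 per 10000 in SHR, a log2 ratio of 0.27. Most of this sum was P2rx2, with 70.5% in Wistar and 66.9% in SHR. When P2rx1 and P2rx6 were included, the P2X sum was 0.805 in Wistar and 0.858 in SHR, a log2 ratio of 0.09, since the lower P2rx6 in SHR offset part of the rest. P2rx6 made up 13.7% of that sum in Wistar and 2.06% in SHR.

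The 3 P2Y members summed to 0.0386 in Wistar against 0.0383 in SHR, a log2 ratio of -0.01, which turned to 0.028 when ribosomal protein and mitochondrial genes did not count towards the total and to 0.20 relative to the median gene. With the other P2Y genes the sum was 0.223 in Wistar and 0.139 in SHR, and 82.5% and 71.2% of it was P2ry6. The 2 adenosine receptor members summed to 0.0565 in Wistar against 0.0245 in SHR, a log2 ratio of -1.20. As shares of the summed mean of all 20 receptor genes, P2X genes took 73.8% in Wistar and 83.7% in SHR, P2Y genes 20.5% and 13.6%, and adenosine receptor genes 5.69% and 2.75%.

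**Figure D3:**
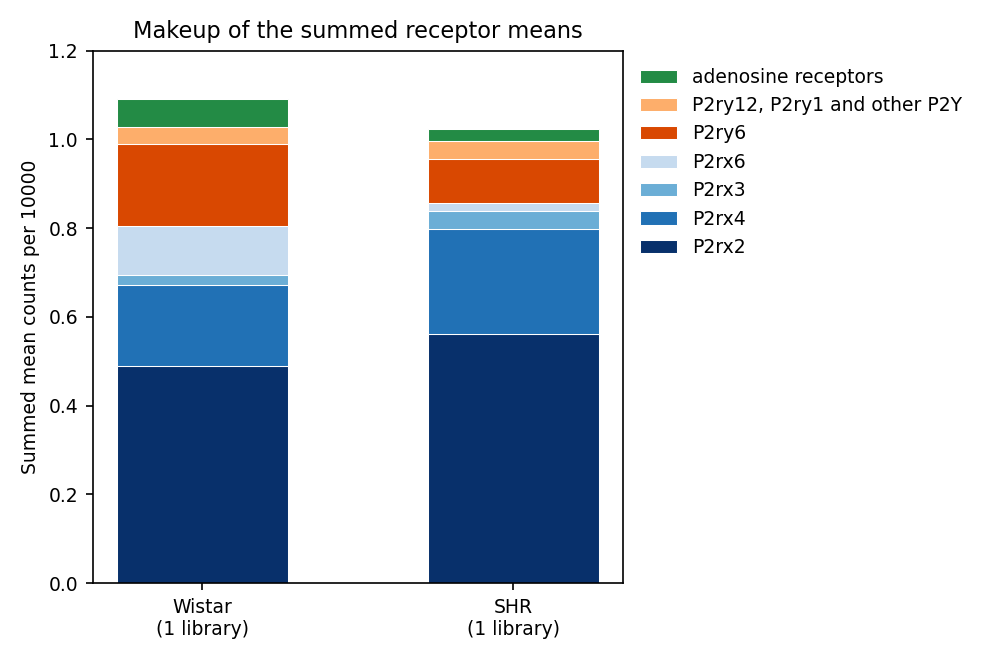
Summed mean counts per 10000 of the 20 receptor genes in the sympathetic neurons of each library, as bars stacked by gene or family. The sum is 1.09 in Wistar and 1.03 in SHR, P2rx2 and P2rx4 form the larger part of both bars, and the segments of P2rx6, P2ry6 and the adenosine receptors are shorter in SHR.

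The nicotinic receptors are other fast ligand-gated channels of these neurons and carry ganglionic transmission, and 1 of their genes stood far above the P2X genes. Chrna3, which encodes the alpha3 subunit, averaged 11.4 per 10000 in Wistar against 12.3 in SHR, 23.3 times that of P2rx2 in Wistar and 21.9 times in SHR. The 11 nicotinic genes listed summed to 12.2 and 12.9 per 10000. Without Chrna3 they summed to 0.754 and 0.574, beside 0.695 and 0.840 for the P2X members. P2rx2 was above the partner subunits Chrnb4, at 0.338 and 0.271, and Chrna5, at 0.263 and 0.204, in both libraries. Chrnb4 and Chrna5 were lower in SHR, as were 65.6% of all genes past the minimum, and P2rx2 was higher. Relative to the median gene the log2 ratios were -0.11 for Chrnb4, -0.15 for Chrna5 and 0.41 for P2rx2. The contrast was not tested.

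The genes that release, break down and take up these ligands were then examined from 3 lists. Of 9 genes linked to ATP release, 3 averaged at least 0.1 per 10000 and all 3 were lower in SHR, none by 1.5-fold, where 65.6% of all genes past the minimum were lower and 26.5% by 1.5-fold or more. They were the volume-regulated channel gene Lrrc8a, at 0.476 in Wistar against 0.391 in SHR, and the pannexin genes Panx2, at 0.198 and 0.169, and Panx1, at 0.131 and 0.121. Relative to the median gene the log2 ratios were small, at 0.098 for Panx1, -0.016 for Panx2 and -0.071 for Lrrc8a, so that the direction of Panx1 rests on the scaling. Slc17a9, the vesicular nucleotide transporter that loads ATP into vesicles, stood at 0.000462 in Wistar and was listed at 0 in SHR.

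Of 13 genes of nucleotide breakdown, 5 passed the minimum, of which 4 were lower in SHR, 2 of them by 1.5-fold or more, and 1 higher, beside the same 65.6% and 26.5% of all genes. The higher gene was Acpp, which encodes an acid phosphatase that can convert AMP to adenosine at the cell surface, and it had the highest mean of all the receptor and handling genes, at 1.86 in Wistar against 2.28 in SHR. Entpd3, which encodes a surface enzyme that splits ATP and ADP, averaged 0.584 in Wistar against 0.359 in SHR, a Wistar mean 1.63 times the SHR mean. The other gene lower by 1.5-fold or more was Entpd6, at 0.290 and 0.166, with a Wistar mean 1.75 times the SHR mean. Entpd4, an enzyme of intracellular membranes, had 0.532 and 0.430. Nt5e, the ecto-5'-nucleotidase known as CD73, was under the minimum, with 0.0874 in Wistar against 0.0520 in SHR. The median difference of the 5 genes in the log2 of 1 plus the mean was -0.10, beside -0.05 over all genes past the minimum.

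Of 11 genes of adenosine handling, 5 passed the minimum, of which 3 were higher and 2 lower in SHR, 1 of them by 1.5-fold or more. Of all genes past the minimum, 34.4% were higher in SHR, 65.6% lower and 26.5% lower by 1.5-fold or more. Slc29a1, the equilibrative nucleoside transporter ENT1, had the highest mean of the 11, at 1.52 in Wistar against 1.04 in SHR. Its Wistar mean was 1.46 times the SHR mean. Slc29a3, a nucleoside transporter of intracellular membranes, was the gene lower by 1.5-fold or more, at 0.186 against 0.0946, a Wistar mean 1.97 times the SHR mean. Adk, whose adenosine kinase clears adenosine inside the cell, had 0.887 and 0.947, and Ahcy, the hydrolase that forms adenosine from S-adenosylhomocysteine, had 0.643 and 0.675. The median difference of the 5 genes was 0.02 in the log2 of 1 plus the mean, beside -0.05 over all genes past the minimum. Acpp, Slc29a1, Adk and Ahcy all had higher means than any of the 20 receptor genes in both libraries.

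**Figure D4:**
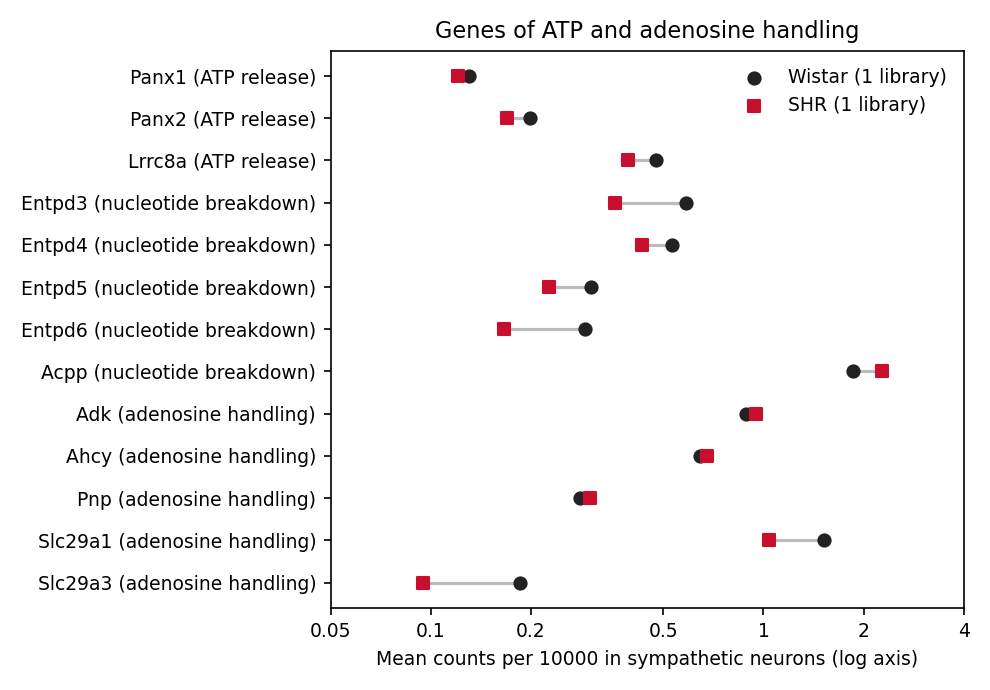
Mean counts per 10000 (log axis) in the Wistar library (circles) and the SHR library (squares) for the 13 genes of ATP release, nucleotide breakdown and adenosine handling that averaged at least 0.1 per 10000. Acpp, Adk, Ahcy and Pnp lie further right in SHR and the other 9 genes further left.

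The summed markers of other cell types were lower in SHR beside several of the values above. Of the 54 single markers in the 8 lists, 39 were lower in SHR, 9 higher and 6 listed at 0 in both libraries. The higher ones included the endothelial gene Tek, at 0.0202 in Wistar against 0.0512 in SHR. Among all genes, 65.6% of those past the minimum and 73.7% of those averaging 0.01 to under 0.1 per 10000 were lower in SHR. Part of the 54 markers averaged under 0.01 per 10000, so their pooled count is not matched to either share. Of the markers averaging 0.01 to under 0.1, all but Tek, Acta2, Hba-a2 and Trpv1 were lower in SHR. The 9 glial markers with a listed value were all above 0 in both libraries. The 6 past the minimum were all lower in SHR by 1.5-fold or more, beside 26.5% of all genes past it. So were the 3 fibroblast markers past the minimum and Avil, the 1 sensory neuron marker past it. The other lists of other cell types had no marker past the minimum. The summed fibroblast markers went from 1.84 per 10000 in Wistar to 0.353 in SHR, the endothelial markers from 0.252 to 0.1004, the smooth muscle and pericyte markers from 0.120 to 0.0740 and the lymphocyte markers from 0.00492 to 0.000717. In means over a cluster, RNA of other cells cannot be separated from RNA of the neurons, and from these means alone fewer positive neurons cannot be told apart from less RNA per neuron. Deposited shares of cells were not used here. P2rx6, P2ry6, Adora1 and Entpd2 were lower in SHR by 1.5-fold or more, P2ry12 and Adora2a were lower by less, and P2rx2, P2rx3, P2rx4 and P2ry1 were higher. Relative to the median gene the log2 ratios were -2.42 for P2rx6, -0.69 for P2ry6, -1.46 for Adora1 and -1.38 for Entpd2. Of all genes averaging 0.01 to under 0.1 per 10000, 49.3% were lower by 1.5-fold or more. Entpd2 averaged 0.126 in Wistar against 0.0418 in SHR. The part of other cells in these differences was not tested.

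**Figure D5:**
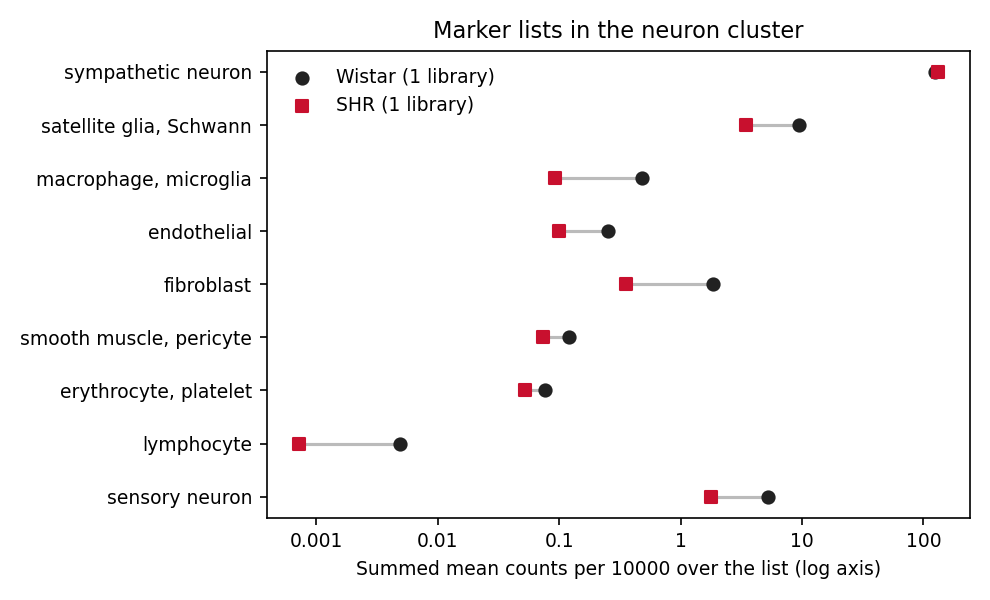
Summed mean counts per 10000 (log axis) over each marker list in the neuron cluster of the Wistar library (circles) and the SHR library (squares). The sympathetic neuron list lies at 125.4 in Wistar and 131.5 in SHR, and the 8 lists of other cell types lie lower and further left in SHR.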

How the data were processed

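Single-cell libraries (10x Genomics 3' v3) were made from 1 Wistar and 1 SHR preparation of stellate ganglia. The submitters' processing notes name Cell Ranger 3.0.2, Seurat 3, DESeq2 and the Rnor_6.0 build. Filters on cells, doublet removal and the number of neurons are not given in the sources used here. Per gene and library, the values the authors deposited for the neuron cluster are on a natural log scale (log of 1 plus the mean count per 10000), and the values converted back sum to 10000. A further deposited table holds the authors' own comparison of the strains (fold changes, p-values and shares of cells) and was not used. In each library 4 lines with a repeated name, which come from gene names turned into dates, were left out. Depth is unknown, so no interval or detection limit is given.

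Values were converted with expm1. Differences were taken as the log2 of 1 plus the mean and as ratios of means, SHR to Wistar, with Python 3.11.15, NumPy 2.4.6 and pandas 2.3.3, and the steps were tested on simulated data. Genes averaging at least 0.1 per 10000 were counted, with 1.5-fold as the limit of size. The members and lists were chosen with earlier results of these data known. The rule for naming took all members and further receptor genes, and at most the 3 highest genes of each handling list and of the nicotinic list. Slc17a9, Nt5e, Panx1, Entpd2, Entpd6, Slc29a3, Pnp and single markers were named after their values were seen. Promoter sequences came from RefSeq (GRCr8) by gene symbol. Alternatives were other pseudocounts, scalings, minimums and a 2-fold limit.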

Additional observations from a re-analysis of the deposited data

How the results depend on the processing

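No paired analysis was possible because only 1 library was made from each strain, and no result has a test or a replicate to leave out. A log2 value was taken as moved when it changed by 0.01 or more. With a total that did not count ribosomal protein and mitochondrial genes, the log2 ratio of the summed P2X means went from 0.27 to 0.32, that of the P2Y means from -0.01 to 0.028 and that of the adenosine receptor means from -1.20 to -1.16. Centring on the median gene past the minimum made these 0.49, 0.20 and -0.99. With the other receptor genes of each family, a choice made after seeing the data, they were 0.093, -0.69 and -1.14. A total without the markers of other cells left the 3 ratios within 0.01. The same centring adds 0.052 to each difference in the log2 of 1 plus the mean, which by construction turned 4 small ones positive, P2ry2 (0.050), P2ry12 (0.049), Adora1 (0.015) and Adora2a (0.045). Pseudocounts of 0.1 and 0.01 moved all 9 members above 0 in either library and a pseudocount of 10 moved 4, with no change of sign. The count of members lower in SHR was 0 of 2 at the minimum of 0.1, 4 of 9 with no minimum and 3 of 7 at a minimum of 0.01. The minimum of 0.01 was chosen after seeing the data. The count lower by 1.5-fold or more was 0, 2 and 1 of the same members, where more genes enter as the minimum falls. Of all genes averaging at least 0.1, 65.6% were lower in SHR and 26.5% by 1.5-fold or more. From 0.01 to under 0.1 these shares were 73.7% and 49.3%, and none is given here for no minimum. Both member counts stayed at 0 with minimums of 0.05 and 0.5 per 10000 and under the 3 scalings, as did the second with a limit of 2-fold. The unknown depth limits every member averaging under 0.1 per 10000.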
